A study of Mus musculus with 30 samples.

Results

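The 9 genes described here are Spry1, Spry2, Spry4, Spred1, Dusp4, Dusp6, Etv4, Etv5 and Il17rd, which the FGF/ERK pathway switches on and most of which feed back to restrain it. They were chosen by name, as listed feedback genes whose levels serve as a readout of FGF pathway activity. The rule used no measured value, but earlier results of these data were known when the genes were chosen. All 9 are among the 54134 rows of the count table, and all 9 passed the filter on low counts that left 12149 genes for testing. RNA was counted in 30 libraries of differentiating mouse embryonic stem cells (ESCs), in 10 groups of 3 libraries. The cells were of the ES-Bruce4 line, either wildtype or Nr6a1-/-, and Nr6a1 encodes an orphan nuclear receptor. Both genotypes received FGF2 from the start. The d2 groups had FGF2 alone for 48 h, the d2.5 and d3 groups had the Wnt pathway agonist CHIR99021 added for 12 h and 24 h, and the d4 groups stayed 24 h longer in the d3 condition. The d4G groups had Gdf11, a TGF-beta family ligand, for the 24 h after d3. No group lacked FGF2, so that these libraries hold no baseline without the ligand. The Nr6a1-/- cells were 1 clone carrying a separate CRISPR/Cas9 deletion in exon 4 of each allele, so that genotype and clone cannot be told apart.

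Fibroblast growth factors bind receptor tyrosine kinases at the cell surface and pass the signal through Ras, Raf and MEK to the kinase ERK. Active ERK induces its own inhibitors: Sprouty and Spred proteins act at the level of Ras and Raf, the dual-specificity phosphatase DUSP6 removes phosphate from ERK in the cytoplasm, DUSP4 does so in the nucleus, and the membrane protein encoded by Il17rd, also called Sef, restrains the pathway at the receptor and below it. ETV4 and ETV5, of the PEA3 group of ETS transcription factors, are induced by FGF in the same way and carry the response forward. In the posterior end of the embryo, FGF and Wnt signals together maintain the neuromesodermal progenitors that feed the growing trunk and tail.

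Promoter sequence was at hand for 6 of the 9 members, as 7 RefSeq promoters of 300 bases each (GRCm38.p6, 250 bases before and 50 after the start of the gene, 5′ to 3′ on the strand of the gene). The promoters of Dusp6, Spry2 and Spred1 are shown because the first pair of genes varied together from library to library and Spred1 was called at 3 stages. Capitals mark CGGAA or its reverse complement TTCCG, the central letters of sites that ETS factors bind. The windows are chr10:99262981-99263280 on the plus strand for Dusp6, chr14:105896770-105897069 on the minus strand for Spry2 and chr2:117120821-117121120 on the plus strand for Spred1.
Dusp6: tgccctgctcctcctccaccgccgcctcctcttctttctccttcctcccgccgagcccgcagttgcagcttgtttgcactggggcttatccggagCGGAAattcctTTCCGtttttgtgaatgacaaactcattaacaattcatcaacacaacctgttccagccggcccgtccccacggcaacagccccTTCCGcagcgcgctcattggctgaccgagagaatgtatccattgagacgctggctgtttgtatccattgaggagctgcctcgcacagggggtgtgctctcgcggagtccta
Spry2: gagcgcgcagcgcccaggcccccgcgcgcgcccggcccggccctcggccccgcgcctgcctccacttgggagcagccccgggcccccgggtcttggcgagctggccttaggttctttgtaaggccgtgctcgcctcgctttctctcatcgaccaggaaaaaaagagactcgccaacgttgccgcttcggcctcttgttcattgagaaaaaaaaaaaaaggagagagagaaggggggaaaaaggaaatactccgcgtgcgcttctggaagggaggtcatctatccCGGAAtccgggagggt
Spred1: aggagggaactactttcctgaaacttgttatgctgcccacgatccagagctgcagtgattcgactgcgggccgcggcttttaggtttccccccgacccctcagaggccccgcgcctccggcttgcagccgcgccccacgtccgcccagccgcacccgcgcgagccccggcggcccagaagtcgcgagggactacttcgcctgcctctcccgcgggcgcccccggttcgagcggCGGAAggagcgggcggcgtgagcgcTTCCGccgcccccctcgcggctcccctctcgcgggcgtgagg

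These letters occurred 3 times in the Dusp6 window, 2 times each in those of Spred1 and Il17rd and 1 time in that of Spry2, and not in the Spry1 window or either Etv5 window. They were thus in 4 of the 7 member promoters, where 29.9% of all 32851 promoters in the RefSeq table held them. The longer ETS letters CCGGAAG, in 8.86% of all promoters, the TCF/LEF letters CTTTGAT, in 3.73%, and the AP-1 letters TGANTCA, in 7.81%, were each searched on both strands and were in 0 of the 7. The CGGAA letters lie within CCGGAAG and were added after the longer form had been searched and the promoters had been read. Their 4 of 7 beside 29.9% is thus a description and cannot test enrichment. Spry4, Dusp4 and Etv4 are named only.

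The libraries held 1570714 to 3688197 counts, with a median of 2366002. A library without a count for a gene could still hold up to 0.813 to 1.91 CPM (counts scaled to a common library size), the limit that 3 counts set, which covers counting error only. Reads came from the 3′ ends of transcripts, so that levels are compared between groups for 1 gene and not between genes, and fewer cells of a type cannot be told apart from less RNA per cell. Counts of Nr6a1 itself do not check the deletion, since a 3′ tag lies outside exon 4. They were 85.7 ± 1.89 CPM in wildtype and 94.8 ± 6.31 CPM in Nr6a1-/- libraries at d2 (mean ± SD, n = 3, as throughout) and 97.6 ± 1.59 and 223 ± 33.0 CPM at d4. Summed epiblast and pluripotency markers lay between 2348 and 2396 CPM in wildtype libraries at d2 and between 186 and 203 CPM at d3, and summed neuromesodermal markers between 127 and 150 CPM and between 956 and 1045 CPM, so that the labelled course was visible. Of the wildtype libraries at d4, replicate 2 stood apart with 650 CPM of the epiblast markers, against 87.4 CPM in the lowest. Results that rest on it are given with and without it.

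Between the genotypes, feedback genes were called most often at d4, and higher in Nr6a1-/- cells. There, 6 of the 9 rose (Spry2, Spry4, Spred1, Dusp6, Etv4 and Il17rd) by 1.36 to 2.89 times, and 0 fell, where 9.7% of all tested genes were called higher and 9.18% lower. Called means a false discovery rate (FDR) below 0.05 by the quasi-likelihood F-test of edgeR in 1 model of the 10 groups, with p-values adjusted over all 12149 genes after Benjamini and Hochberg. The median log2 fold change of the 9 genes at d4 was 0.71, beside 0.02 over all genes. Without wildtype replicate 2 the same 6 genes were called, with FDR values from 1.66e-06 to 0.0445. Nr6a1-/- replicate 1 differed most in its counts from the other replicates of its group. Without it the call of Spred1 was lost (log2 0.37, FDR 0.1) and the others were kept. The nature of the cells differed in the same libraries: the 5 paraxial mesoderm markers, none at 0, summed to 203 to 249 CPM in wildtype and 610 to 640 CPM in Nr6a1-/- libraries, the 7 neuromesodermal markers, none at 0, to 515 to 577 CPM and 754 to 903 CPM, and the 6 endoderm markers, of which Cer1 was at 0 in both groups, to 43.7 to 51.3 CPM and 4.69 to 9.19 CPM. The 5 neural markers summed to 7.81 to 14.4 CPM and 4.76 to 6.82 CPM, with Olig2 at 0 in the Nr6a1-/- group, and the 7 fibroblast markers to 25.7 to 29.6 CPM and 17.04 to 22.96 CPM, with Lum at 0 in wildtype. The 6 epiblast markers summed to 87.4 to 650 CPM and 97.0 to 101 CPM, with Otx2 at 0 in the Nr6a1-/- group. Single markers did not all follow their sum. Of the neuromesodermal markers, Fgf8 (136 CPM in wildtype and 67.4 CPM in Nr6a1-/- libraries), Sox2 and Cdx2 had lower means in Nr6a1-/- cells. Cdx1 (160 and 343 CPM), Nkx1-2 (20.1 and 108 CPM), T and Wnt3a had higher ones. The part of these differences in the feedback genes was not tested.

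At the other stages fewer members were called. At d2, before Wnt activation, 0 of 9 were called in either direction, where 1.35% of genes were called higher and 2.72% lower. DESeq2 also called 0 there, although 3 members (Spry2, Spry4 and Dusp6) had an unadjusted p below 0.05. Spry2 and Dusp6 were called lower and Spry4 higher at d2 with no filter on low counts (FDR 2.45e-05, 3.68e-06 and 0.024) and in a fit of only the libraries compared (FDR 0.00319, 0.000491 and 0.0388). At d2.5, 4 of 9 rose (Spred1, Dusp6, Etv4 and Etv5) and 0 fell, against 2.86% and 3.59% of genes. At d3 only Spred1 and Etv4 were called, both higher, against 4.47% of genes higher and 6.3% lower. At d4G the called members were Spry4 and Dusp6, both higher, against 3.28% and 4.63%. Over the 45 differences of 9 genes at 5 stages, 14 were called higher and 0 lower, apart from the lower calls of Spry2 and Dusp6 that those alternatives gave at d2, and 7 of the 9 genes were called at 1 stage or more. Spry1 and Dusp4 were called at none. Over all tested genes, 1.35% to 9.7% were called higher and 2.72% to 9.18% lower at a single stage. The share of all genes called at 1 stage or more was not counted. These 45 differences share the clone and, across comparisons, 1 estimate of the spread, so that they are not 45 independent findings. The labels do not say that replicates came from separate cultures, and p-values measure only the spread between these libraries.

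Marker sums differed between the genotypes at these stages too. At d2 epiblast sums were 2348 to 2396 CPM in wildtype and 3109 to 3192 CPM in Nr6a1-/- libraries. Neuromesodermal sums were 127 to 150 CPM and 151 to 160 CPM. Sox2 made up most of them, at means of 126 and 145 CPM. T (4.54 and 2.79 CPM), Nkx1-2, Fgf8, Cdx1 and Wnt3a had lower means in Nr6a1-/- libraries at d2, and Cdx2 was at 1.10 CPM in both. Endoderm sums, with Cer1 and Foxa1 at 0 in both, were 11.7 to 19.1 CPM and 0.374 to 3.79 CPM. Neural sums were 56.0 to 73.0 CPM and 34.1 to 44.4 CPM. Those of paraxial mesoderm were 52.0 to 61.1 CPM and 26.8 to 31.1 CPM, and of fibroblasts 16.5 to 22.7 CPM and 33.4 to 39.1 CPM. At d2.5 the endoderm markers, with Cer1 at 0 in both groups, summed to 19.5 to 26.8 CPM in wildtype and 1.75 to 5.37 CPM in Nr6a1-/- libraries. The neuromesodermal markers summed to 586 to 617 CPM and 753 to 790 CPM there, the epiblast markers to 683 to 689 CPM and 821 to 861 CPM, and the fibroblast markers, with Lum at 0 in both, to 20.2 to 27.2 CPM and 31.1 to 33.3 CPM. Neural and paraxial mesoderm sums overlapped at d2.5. At d3 the neuromesodermal sums were 956 to 1045 CPM and 1331 to 1550 CPM, those of paraxial mesoderm 30.8 to 48.3 CPM and 55.4 to 74.4 CPM, those of epiblast 186 to 203 CPM and 238 to 261 CPM, those of endoderm, with Cer1 and Foxa1 at 0 in both, 34.3 to 39.1 CPM and 4.09 to 7.23 CPM, and those of fibroblasts 47.4 to 55.2 CPM and 61.4 to 74.8 CPM, while neural sums overlapped. At d4G the paraxial mesoderm sums were 141 to 168 CPM and 264 to 295 CPM, those of endoderm 47.2 to 65.1 CPM and 3.37 to 9.01 CPM, and those of epiblast 87.5 to 90.6 CPM and 94.8 to 109.5 CPM, with the neuromesodermal sums lower in Nr6a1-/- cells, at 387 to 423 CPM against 429 to 450 CPM. Neural and fibroblast sums overlapped at d4G. Here too single markers went against their sum. The epiblast marker Utf1 was lower in Nr6a1-/- cells at d2.5 (160 and 131 CPM) and d3 (43.8 and 35.3 CPM), while Dnmt3b was higher. Of the neuromesodermal markers, Fgf8 (33.9 and 28.8 CPM at d2.5, 131 and 96.4 CPM at d3) and Sox2 had lower means in Nr6a1-/- cells at both stages. T, Nkx1-2, Cdx2, Cdx1 and Wnt3a had higher ones there. At d4G Cdx1 (141 and 202 CPM), Wnt3a and Nkx1-2 had higher means in Nr6a1-/- cells, and T, Cdx2, Fgf8 and Sox2 lower ones. The part of the marker differences in the values of the feedback genes was not tested.

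**Figure D1:**
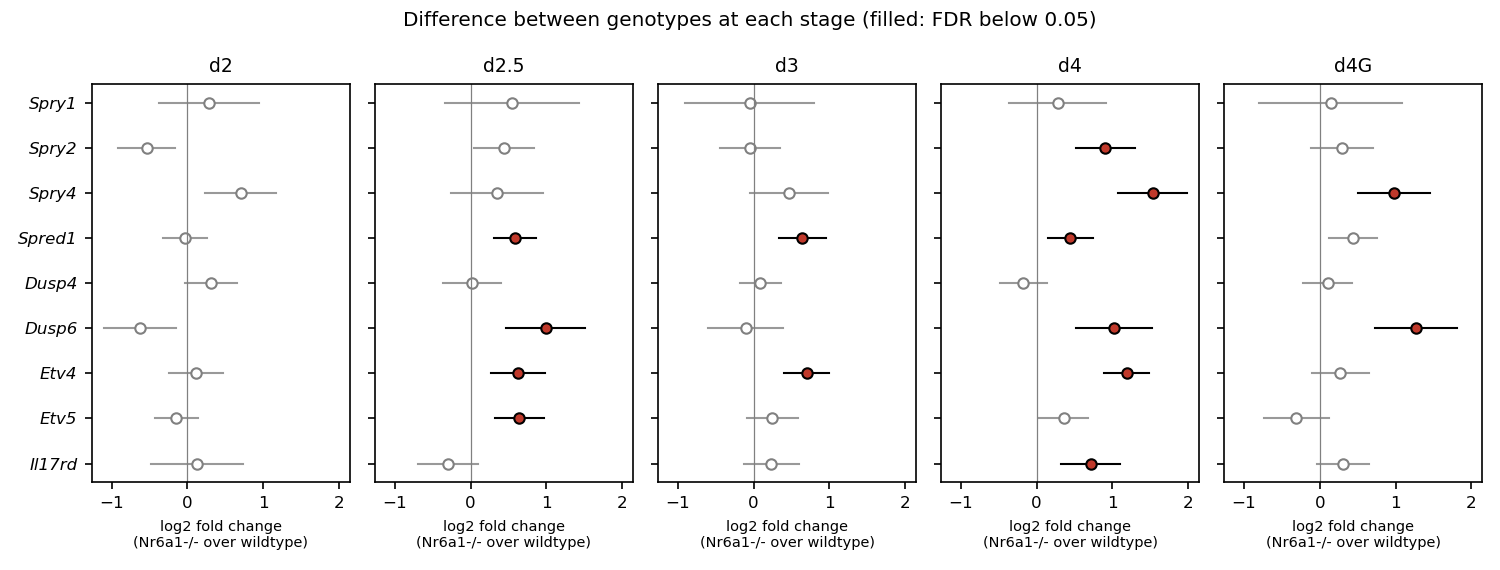
Log2 fold change of each feedback gene, Nr6a1-/- over wildtype, at each of the 5 stages (points, with lines for the 95% interval; filled points have an FDR below 0.05). At d4 the filled points of Spry4 (1.53), Etv4 (1.19) and Dusp6 (1.02) lie farthest to the right, and at d2 no point is filled.

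Spry2 (chr14:105891947-105896819, minus strand, GRCm38 as are all positions of genes here) encodes a Sprouty protein that blocks Ras activation downstream of the receptor. At d4 it was counted at 114.6, 156.1 and 180.4 CPM in the 3 wildtype libraries and at 249.9, 310.1 and 290.6 CPM in the 3 Nr6a1-/- libraries. The groups did not overlap, and the difference was 0.90 on the log2 scale (SE 0.19, FDR 0.000464). Overlap is given here and below as a description, and the share of all tested genes whose groups did not overlap was not counted. At d2 the values were 347.6, 500.8 and 408.1 CPM in wildtype and 265, 235.9 and 362.2 CPM in Nr6a1-/- libraries, with a log2 difference of -0.54 that was not called (FDR 0.0895). It was called at d2 without Nr6a1-/- replicate 3 (log2 -0.73, FDR 0.0302) and with the replicate number as a block (FDR 0.0484), and the groups overlapped. At d2.5 the log2 difference of 0.44 was not called (FDR 0.18), but was without wildtype replicate 3 (0.71, FDR 0.0235). At d3 the means were 184.6 ± 20.4 and 179.1 ± 27.3 CPM, and at d4G 153 ± 30.5 and 187.8 ± 40.4 CPM, neither difference being called.

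Spry4, a Sprouty gene on chromosome 18, had the largest genotype difference of the 9 genes at d4. Its levels there were 14.4, 12.7 and 13.2 CPM in wildtype and 32.5, 38.7 and 44.7 CPM in Nr6a1-/- libraries, a log2 difference of 1.53 (SE 0.22, FDR 1.39e-06). All Nr6a1-/- values lay above all wildtype values. At d4G the values were 21.4, 16.2 and 14.8 CPM in wildtype and 45.2, 31.2 and 26.6 CPM in Nr6a1-/- libraries. The groups were again apart (log2 0.98, SE 0.23, FDR 0.0032), but the call was lost without Nr6a1-/- replicate 1, the highest (0.72, FDR 0.0794). Spry4 was also apart between the groups at d2 (17.5 ± 5.62 and 28.8 ± 5.05 CPM) and at d3 (14.5 ± 4.63 and 20.1 ± 2.17 CPM), with FDR values of 0.0698 and 0.252. The difference at d2 was called without wildtype replicate 3 (1.00, FDR 0.0271). At d2.5 the means were 9.79 ± 1.63 and 12.5 ± 2.995 CPM. The annotation places 2 small RNA genes within Spry4 on the opposite strand, and whether strand was used in counting is not stated.

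Spred1 (chr2:117121374-117182279, plus strand) encodes a Sprouty-related protein that recruits neurofibromin to switch off Ras. Like Etv4, it was called at d2.5, d3 and d4. At d3 it was at 41.0, 37.3 and 39.2 CPM in wildtype and 51.8, 61.2 and 69.9 CPM in Nr6a1-/- libraries, without overlap (log2 0.64, SE 0.15, FDR 0.00321). At d2.5 the means were 68.9 ± 12.0 and 103.3 ± 8.03 CPM (log2 0.58, FDR 0.00411), a call lost without wildtype replicate 2 (0.46, FDR 0.0554). At d4 they were 42.1 ± 2.14 and 57.3 ± 6.26 CPM (log2 0.45, FDR 0.0259), and at d4G 43.7 ± 4.51 and 59.5 ± 0.907 CPM (log2 0.44, FDR 0.066, not called but for the fits after thinning and of only the libraries compared, FDR 0.0366 and 0.0334). The d4 call was lost without wildtype replicate 1 or 3 or Nr6a1-/- replicate 1 or 3, with FDR values from 0.0517 to 0.1, and with only the libraries compared (FDR 0.0506). The genotypes overlapped only at d2, at 62.8 ± 9.64 and 61.8 ± 13.3 CPM.

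Spry1 (chr3:37639947-37644598, plus strand), the third Sprouty gene, was sparse, with 4 to 25 counts per library. Its means ran from 2.96 ± 0.737 CPM at d2.5 to 6.84 ± 0.876 CPM at d4 in wildtype and from 3.35 ± 1.95 CPM at d4G to 8.18 ± 0.364 CPM at d4 in Nr6a1-/- cells. At d2.5 all Nr6a1-/- libraries, at 3.93 to 4.99 CPM, lay above all wildtype libraries, at 2.53 to 3.81 CPM, without a call (log2 0.54, FDR 0.522), and at the other stages the groups overlapped. No genotype difference was called at this depth, with log2 values from -0.05 to 0.54 and standard errors from 0.31 to 0.45. An unnamed transcript, Gm42922, overlaps its start on the opposite strand.

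Dusp6 (chr10:99263231-99267489, plus strand) encodes the cytoplasmic ERK phosphatase and is a widely used reporter of FGF signalling. At d2.5 it was at 74.8, 41.2 and 102.2 CPM in wildtype and at 169.2, 126 and 138.8 CPM in Nr6a1-/- libraries. All Nr6a1-/- libraries were above all wildtype libraries, by 0.99 on the log2 scale (SE 0.25, FDR 0.0116). The call was lost without wildtype replicate 2, the lowest (0.72, FDR 0.12), or Nr6a1-/- replicate 1 (0.86, FDR 0.0707). At d4 the values were 56.7, 82.1 and 111.7 CPM in wildtype and 189.3, 153.4 and 171.7 CPM in Nr6a1-/- libraries (log2 1.02, SE 0.24, FDR 0.00188). At d4G they were 47.5, 49.9 and 81.8 CPM and 205.4, 143.3 and 87.1 CPM (log2 1.27, SE 0.26, FDR 0.000762). The groups were apart at both stages, though the spread among Nr6a1-/- libraries at d4G was wide, with replicate 3 only a little above the highest wildtype library. At d2 the order was the other way: 181.5, 261.8 and 253.3 CPM in wildtype and 138.9, 134 and 176.8 CPM in Nr6a1-/- libraries, with no overlap but no call (log2 -0.63, FDR 0.125). At d3 the means were 136.4 ± 11.9 and 126.6 ± 31.0 CPM. The wildtype means of Dusp6 spanned 3.89 times from the lowest stage to the highest, and the Nr6a1-/- means 1.35 times.

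Dusp4 (chr8:34807297-34819894, plus strand), the nuclear phosphatase, showed a strong stage pattern shared by both genotypes. It was highest at d3, with 68.6, 66.8 and 64.4 CPM in wildtype and 73.9, 63.7 and 74.0 CPM in Nr6a1-/- libraries, and lowest at d2.5, at 20.2 ± 2.26 and 20.5 ± 1.83 CPM. At d2 the means were 26.1 ± 4.17 and 32.3 ± 7.43 CPM, at d4 39.7 ± 4.97 and 35.5 ± 4.92 CPM and at d4G 35.9 ± 4.64 and 38.4 ± 4.60 CPM. Genotype differences ran from -0.18 to 0.31 on the log2 scale and none was called. The 655 tested genes of its chromosome had median log2 genotype differences from -0.38 to -0.29 over the 5 stages, below 0 at each. The value of Dusp4 lay above 96.0%, 86.3%, 90.1%, 58.6% and 88.2% of theirs at d2, d2.5, d3, d4 and d4G. The part of the chromosome in the values of Dusp4 was not tested.

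Etv4 (chr11:101769742-101785371, minus strand), a PEA3 transcription factor, was higher in Nr6a1-/- cells at d2.5, d3 and d4. At d4 it was at 25.7, 29.8 and 34.8 CPM in wildtype and 64.5, 71.1 and 72.4 CPM in Nr6a1-/- libraries (log2 1.19, SE 0.14, FDR 4.43e-08). At d3 it was at 47.3, 37.8 and 39.6 CPM and 76.3, 59.9 and 65.8 CPM (log2 0.70, SE 0.14, FDR 0.000688). Neither pair of groups overlapped. At d2.5 the means were 21.7 ± 2.42 and 33.6 ± 8.18 CPM (log2 0.63, FDR 0.0195). That call was lost when wildtype replicate 1 or 2 or Nr6a1-/- replicate 1 or 2 was left out, with FDR values from 0.0518 to 0.146, and with only the libraries compared (FDR 0.0766). At d2 the means were 24.0 ± 0.847 and 25.8 ± 1.11 CPM, and at d4G 22.5 ± 3.68 and 27.0 ± 3.31 CPM, neither called.

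Etv5 (chr16:22381309-22439719, minus strand), the closest relative of Etv4 in the list, was called at d2.5 alone. The values there were 39.5, 35.6 and 42.5 CPM in wildtype and 61.4, 59.5 and 62.6 CPM in Nr6a1-/- libraries, clearly apart (log2 0.64, SE 0.16, FDR 0.00742). At d4 the groups did not overlap either, at 37.6 ± 2.88 and 48.3 ± 2.49 CPM, but the difference of 0.36 was not called (FDR 0.107). The means were 85.2 ± 18.9 and 77.0 ± 8.26 CPM at d2, 39.2 ± 3.45 and 46.7 ± 6.18 CPM at d3 and 23.5 ± 5.92 and 19.3 ± 4.49 CPM at d4G.

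Il17rd (chr14:27038941-27107286, plus strand), encoding the receptor-level antagonist Sef, was called at d4 alone. It was at 28.8, 27.1 and 22.2 CPM in wildtype and 28.6, 47.9 and 50.7 CPM in Nr6a1-/- libraries (log2 0.71, SE 0.19, FDR 0.00523). The groups overlapped, since Nr6a1-/- replicate 1 lay within the wildtype range, and the call was lost without Nr6a1-/- replicate 3 (0.55, FDR 0.078). At d4G the groups did not overlap, at 58.2 ± 4.88 and 71.5 ± 9.57 CPM, without a call (FDR 0.316). The means were 9.23 ± 2.60 and 10.5 ± 1.65 CPM at d2, 38.4 ± 7.32 and 31.0 ± 7.76 CPM at d2.5 and 42.1 ± 4.64 and 49.6 ± 5.15 CPM at d3.

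**Figure D2:**
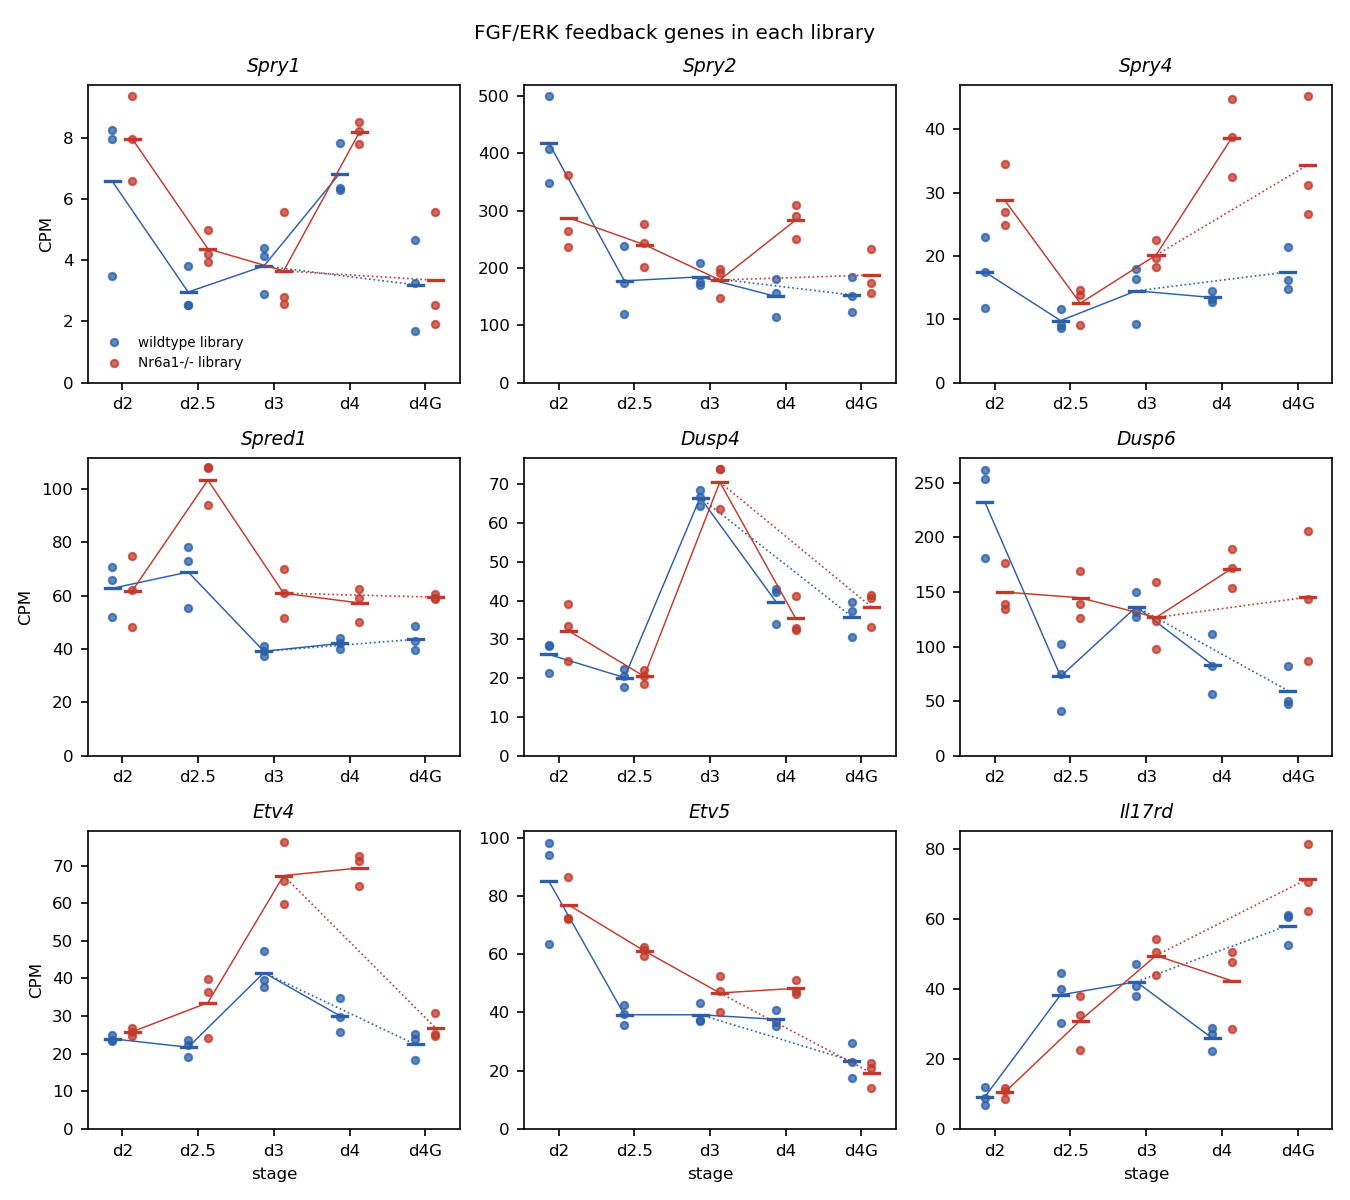
CPM of the 9 feedback genes in each of the 30 libraries by stage (dots; short bars, group means of 3 libraries; solid lines join d2 to d4 and dotted lines d3 to d4G). Wildtype Dusp6 drops from 232.2 to 72.7 CPM between d2 and d2.5 while the Nr6a1-/- mean stays near 145 to 150 CPM, and Il17rd is lowest at d2 in both genotypes.

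The change from stage to stage was examined in each genotype. In wildtype cells all 3 Sprouty genes, Dusp6 and Etv5 were lower after the first 12 h of CHIR99021 than before it, and Il17rd was higher. Between d2 and d2.5, 5 of the 9 fell and 1 rose, where 12.1% of all genes fell and 13.3% rose. Dusp6 fell by 1.67 on the log2 scale (FDR 2.95e-06), Spry2 by 1.24 (FDR 4.28e-06), Etv5 by 1.12 (FDR 5.53e-07), Spry1 by 1.14 (FDR 0.0338) and Spry4 by 0.86 (FDR 0.0213), while Il17rd rose by 2.00 (FDR 3.69e-08). The Spry1 call was lost without d2 replicate 2 or 3 or d2.5 replicate 2 or 3 (FDR 0.0912 to 0.188), and also with DESeq2, with no factors, with no filter, after thinning and with only the libraries compared (FDR 0.0523 to 0.163). That of Spry4 was lost without d2 replicate 3 or d2.5 replicate 1 or 2 (FDR 0.0594 to 0.225). In Nr6a1-/- cells the same step gave 2 falls (Spry4, log2 -1.21, and Dusp4, -0.64) and 2 rises (Il17rd, 1.58, and Spred1, 0.75), against 11.2% and 12.9% of genes. Dusp6 changed there by -0.05 (FDR 0.896), Spry2 by -0.26 (FDR 0.325) and Etv5 by -0.33 (FDR 0.0765), none of them called. Spry1 (-0.88) was a little above the threshold and was called without d2 Nr6a1-/- replicate 1 (FDR 0.045), and Etv4 without d2.5 Nr6a1-/- replicate 3 (0.55, FDR 0.0114).

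From d2.5 to d3, in wildtype cells, Dusp4 rose by 1.72 (FDR 4.82e-10), Etv4 by 0.93 (FDR 0.000173) and Dusp6 by 0.91 (FDR 0.0151), and Spred1 fell by 0.82 (FDR 0.000186), so that 3 of 9 rose against 5.91% of genes and 1 fell against 5.56%. The Dusp6 rise was lost without d2.5 replicate 2 (0.64, FDR 0.123) or d3 replicate 3 (0.84, FDR 0.0625). In Nr6a1-/- cells 3 rose, against 7.43% of genes, and 1 fell, against 8.45%. These were Dusp4 (1.78, FDR 1.34e-11), Etv4 (1.00, FDR 1.37e-06) and Il17rd (0.67, FDR 0.00655), with a fall of Spred1 (-0.76, FDR 4.62e-05). The Il17rd rise was lost without d2.5 Nr6a1-/- replicate 1 (FDR 0.0661), and Spry4 (0.68, FDR 0.0501) was called without d2.5 Nr6a1-/- replicate 3 (0.83, FDR 0.0449). Spry4 was also called with no filter, with the replicate block, after thinning and with only the libraries compared (FDR 0.0254 to 0.0437). Falls were called for Spry2 with no filter (-0.42, FDR 0.00137) and only the libraries compared (-0.43, FDR 0.00686). Etv5 was called lower with the replicate block (-0.39, FDR 0.0485) and only the libraries compared (-0.39, FDR 0.0294). Dusp4, Etv4 and Spred1 thus passed the test in the same direction in both genotypes at this step.

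From d3 to d4, Dusp4 was the 1 member called in both genotypes. In wildtype cells 4 fell and 0 rose, where 11.3% of genes fell and 9.77% rose: Dusp4 by 0.73 (FDR 0.000111), Il17rd by 0.71 (FDR 0.00488), Dusp6 by 0.69 (FDR 0.0368) and Etv4 by 0.45 (FDR 0.0313). Without d4 wildtype replicate 2, the falls of Dusp6 (-0.66, FDR 0.0858) and Etv4 (-0.42, FDR 0.0861) were not called. The Dusp6 fall was lost as well without any of the d3 replicates or d4 replicate 1 (FDR 0.0536 to 0.173), and the Etv4 fall without d3 replicate 1 (FDR 0.154) or d4 replicate 1 (FDR 0.116). DESeq2 called neither (FDR 0.0995 for Dusp6 and 0.0565 for Etv4), nor did edgeR after thinning (FDR 0.0721 and 0.298), and Etv4 was not called with no filter (FDR 0.105). In Nr6a1-/- cells the 3 Sprouty genes rose, Spry1 by 1.13 (FDR 0.0158), Spry4 by 0.94 (FDR 0.000811) and Spry2 by 0.66 (FDR 0.0074), and Dusp4 fell by 0.99 (FDR 1.06e-06), against 13.6% of genes higher and 12.3% lower. Leaving out d3 Nr6a1-/- replicate 1 ended the calls of Spry1 (FDR 0.077) and Spry2 (FDR 0.0622), and leaving out replicate 2 ended that of Spry1 (FDR 0.0809).

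Gdf11 for the last 24 h was compared with the d4 cells left without it. The d4 libraries thus enter this comparison, the step from d3 to d4 and the genotype comparison at d4 alike. In wildtype cells Etv5 (log2 -0.68, FDR 0.00265), Spry1 (-1.08, FDR 0.0243) and Etv4 (-0.44, FDR 0.0418) were lower and Il17rd (1.17, FDR 3.31e-06) was higher, which is 3 of 9 lower and 1 higher against 14.5% and 14.3% of genes. The Spry1 call was lost without d4 replicate 1 or d4G replicate 2 or 3 (FDR 0.0637 to 0.16), after thinning (FDR 0.168) and with no filter (FDR 0.0504). Without d4 wildtype replicate 2 the Etv4 value was -0.46 (FDR 0.0688), and it was also lost without d4 replicate 3 or d4G replicate 2 or 3 (FDR 0.0628 to 0.262), with DESeq2 (FDR 0.074), and with no factors, no filter or only the libraries compared (FDR 0.0642 to 0.118). Dusp6 (-0.50, FDR 0.154) was called without d4G replicate 3 (-0.79, FDR 0.0467). In Nr6a1-/- cells Etv4 (-1.36, FDR 1.42e-08), Etv5 (-1.35, FDR 7.6e-07), Spry1 (-1.22, FDR 0.02) and Spry2 (-0.59, FDR 0.0241) were lower and Il17rd (0.77, FDR 0.00111) was higher, 4 and 1 of 9 against 9.59% and 8.45%. The Spry1 call was lost without d4G Nr6a1-/- replicate 1 (FDR 0.14) or 2 (FDR 0.075), and that of Spry2 without d4 or d4G Nr6a1-/- replicates 2 or 3 (FDR 0.0557 to 0.152) and with DESeq2 (FDR 0.0711). Etv5 and Il17rd were called in both genotypes with every single library left out.

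**Figure D3:**
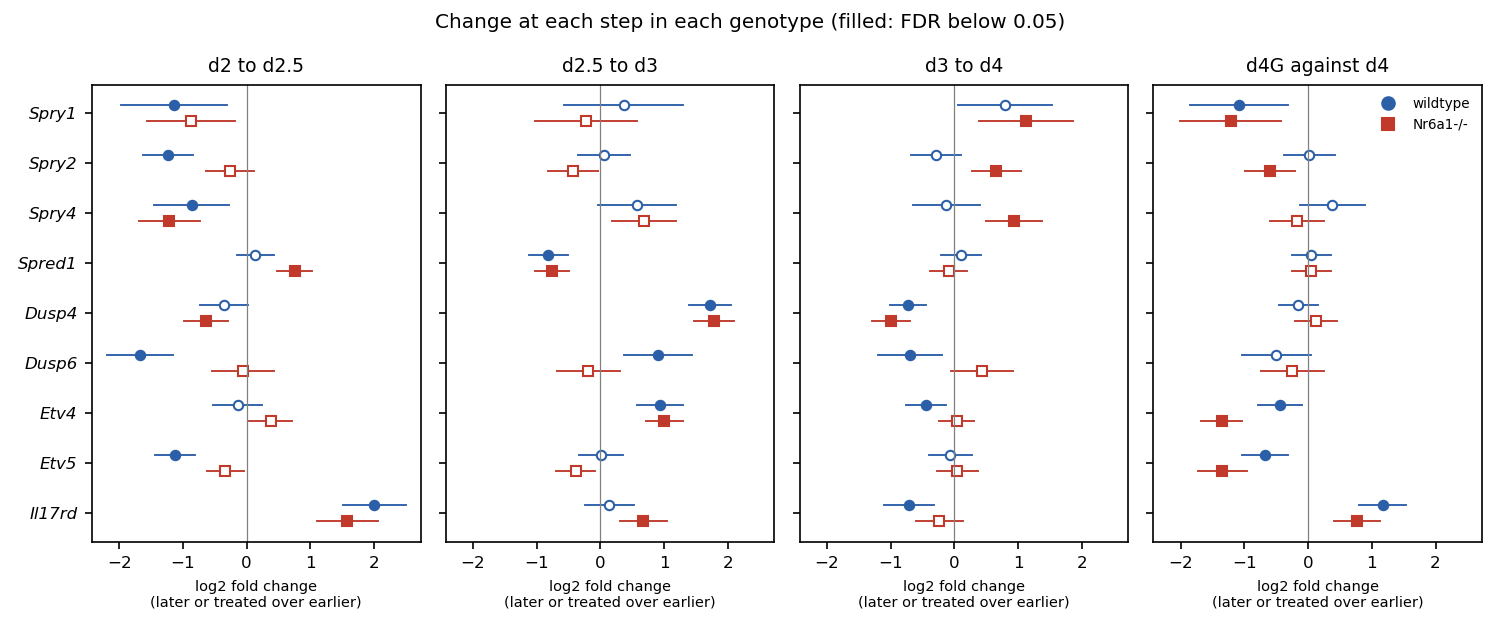
Log2 fold change of each feedback gene at each step in wildtype (blue circles) and Nr6a1-/- cells (red squares), with lines for the 95% interval and filled symbols for an FDR below 0.05. At the first step the wildtype Dusp6 point is at -1.67 and the Nr6a1-/- point at -0.05, and Dusp4 moves up by 1.72 and 1.78 from d2.5 to d3.

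Whether a step differed between the genotypes was tested as an interaction. Between d2 and d2.5, Dusp6 alone of the 9 differed (1.62, SE 0.34, FDR 0.0144), where 0.609% of genes did. The call was lost without d2 wildtype replicate 3 (1.55, FDR 0.0527), d2 Nr6a1-/- replicate 2 (1.54, FDR 0.0675) or d2.5 wildtype replicate 2 (1.34, FDR 0.0703). Spry2 (0.98, FDR 0.0702) and Etv5 (0.79, FDR 0.0649) were not called, but each was without d2 wildtype replicate 1, d2 Nr6a1-/- replicate 3 or d2.5 wildtype replicate 3 (FDR 0.00738 to 0.0489), and Spry2 also without d2.5 Nr6a1-/- replicate 2 (FDR 0.0497). Between d2.5 and d3, 0 of 9 were called, against 0.815% of genes. DESeq2 also called 0, and Dusp6 and Il17rd had an unadjusted p below 0.05. Dusp6 (-1.10, FDR 0.127) was called without d2.5 wildtype replicate 3 (-1.42, FDR 0.0264). Between d3 and d4, 2 of 9 were called, Spry2 (0.95, SE 0.27, FDR 0.0269) and Dusp6 (1.13, SE 0.34, FDR 0.0393), against 5.72% of genes. Without d4 wildtype replicate 2 Spry2 was still called (FDR 0.0431) and Dusp6 was not (1.08, FDR 0.0793). The Spry2 call was lost without d3 wildtype replicate 3, d3 Nr6a1-/- replicate 1, d4 wildtype replicate 1 or d4 Nr6a1-/- replicate 2 or 3 (FDR 0.0578 to 0.0875). The Dusp6 call was lost without any 1 of 9 of the 12 libraries (FDR 0.0545 to 0.119), all but d3 Nr6a1-/- replicate 3, d4 wildtype replicate 3 and d4 Nr6a1-/- replicate 2. DESeq2 called neither (FDR 0.0691 for Spry2 and 0.119 for Dusp6). Spry4 (1.06, FDR 0.051) was called without d3 wildtype replicate 2 (1.30, FDR 0.0181) or d4 Nr6a1-/- replicate 1 (1.16, FDR 0.0258). For Gdf11, 1 of 9 was called, Etv4 (-0.91, SE 0.23, FDR 0.0189), against 2.66% of genes. It was called without d4 wildtype replicate 2 (-0.89, FDR 0.0428) and not without d4 wildtype replicate 1, d4 Nr6a1-/- replicate 3, d4G wildtype replicate 1 or 3 or d4G Nr6a1-/- replicate 2 or 3 (FDR 0.0522 to 0.0772), nor after thinning (FDR 0.238).

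The other genes of the pathway were taken from 5 lists. While feedback genes were higher in Nr6a1-/- cells at d4, most called members of the list of immediate early and other ERK responsive genes were lower. Its 15 tested genes were Etv1, Fos, Fosl1, Jun, Junb, Egr1, Ier2, Ier3, Myc, Phlda1, Ccnd1, Elk1, Elk3, Ets2 and Cic. Whether ERK induces each of them in these cells was not tested, so that the list is not a readout of ERK activity. Of 15 tested immediate early and other ERK responsive genes, 9 were lower and 1 was higher in Nr6a1-/- cells at d4, where 9.18% of all genes were lower and 9.7% higher. Their median log2 difference was -0.57, and no test compared the lists with each other. Egr1, an early growth response transcription factor, was at 46.2 ± 0.532 CPM in the wildtype and 22.8 ± 4.91 CPM in the Nr6a1-/- libraries (log2 -1.02, FDR 3.76e-06). Phlda1 was at 53.8 ± 4.96 and 23.6 ± 4.44 CPM (log2 -1.19, FDR 4.66e-07), and Fos, a component of AP-1, at 12.7 ± 3.005 and 5.13 ± 1.68 CPM (log2 -1.28, FDR 0.00323). Junb, another component of AP-1, was lower too (-1.07, FDR 0.0245), a call lost without d4 wildtype replicate 2 (-0.77, FDR 0.187) or Nr6a1-/- replicate 3. The 1 higher gene was Ier3 (2.57, FDR 0.000141), sparse at 1.33 ± 0.637 and 7.90 ± 3.15 CPM and named after its values were seen. At d4G 6 of the 15 were lower and 0 higher, against 4.63% and 3.28% of genes, among them Junb (56.7 ± 7.31 and 16.2 ± 0.913 CPM, log2 -1.81), Fos (-1.41), Egr1 (76.5 ± 3.78 and 38.0 ± 6.72 CPM, log2 -1.02) and Ier2 (-0.98). Ier2 and Junb lie on chromosome 8, whose tested genes had a median log2 difference of -0.29 at d4 and -0.31 at d4G, and without them 7 of 13 were lower at d4 and 4 of 13 at d4G. The share of all genes outside chromosome 8 that were called was not counted. At d3 2 of the 15 were lower, Jun and Ier2, against 6.3% of genes. At d2.5 1 was lower, Jun, against 3.59%, and at d2 1 was higher, Egr1, against 1.35%. The Jun calls were lost without wildtype replicate 1 or Nr6a1-/- replicate 1 at either stage, without Nr6a1-/- replicate 2 at d2.5 and without wildtype replicate 2 or Nr6a1-/- replicate 3 at d3 (FDR up to 0.165), and that of Ier2 without d3 wildtype replicate 1 (FDR up to 0.0635). The marker sums given above for d4 and d4G differed between the genotypes too, some being higher in Nr6a1-/- cells, some lower and some overlapping. Their part in these differences was not tested.

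**Figure D4:**
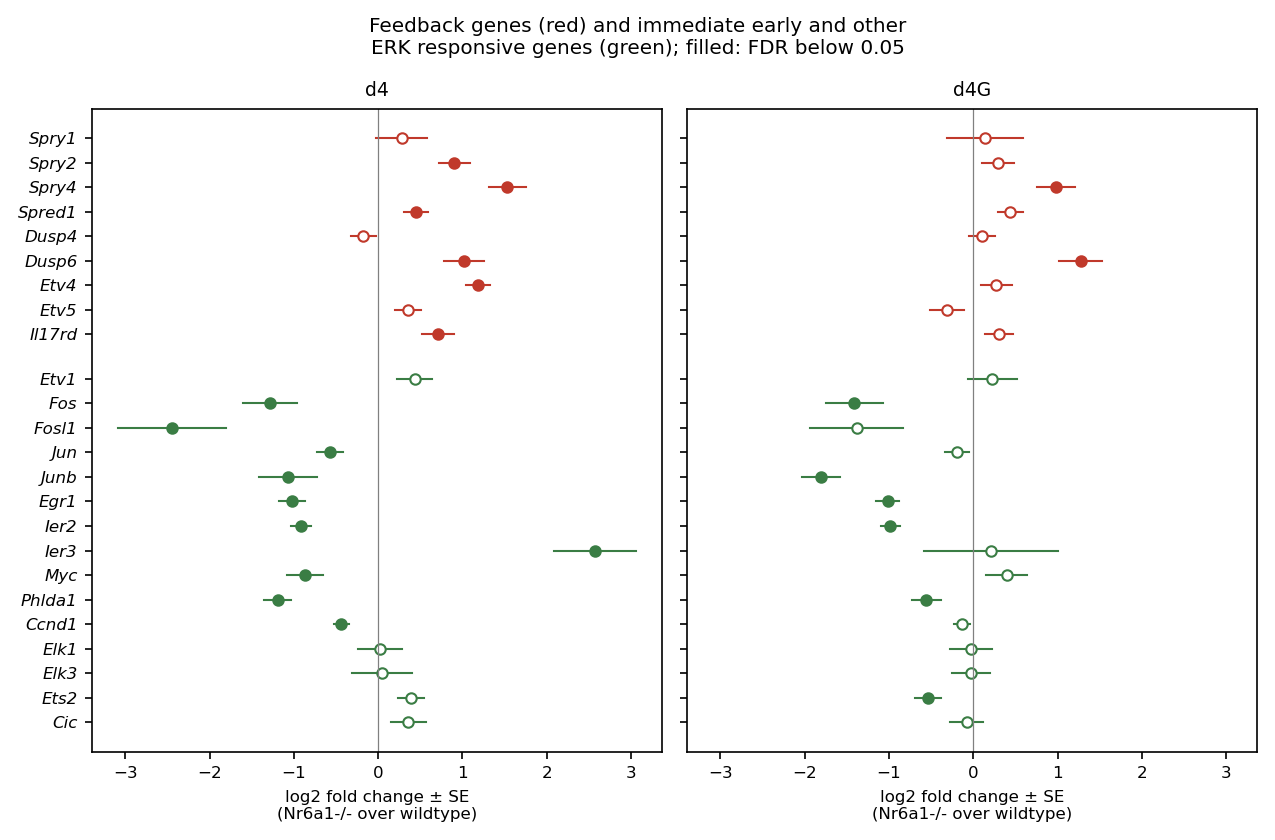
Log2 fold change, Nr6a1-/- over wildtype, with SE lines, of the 9 feedback genes (red) and the 15 tested immediate early and other ERK responsive genes (green) at d4 and d4G; filled points have an FDR below 0.05. At d4, 6 red points are filled and lie right of 0, and of the 10 filled green points 9 lie left of it.

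Of the FGF ligands, 8 of the 16 listed were tested, and at d4 3 were higher and 4 lower in Nr6a1-/- cells, against 9.7% and 9.18% of all genes. Fgf4 was at 16.3 ± 4.46 CPM in the wildtype and 91.1 ± 14.1 CPM in the Nr6a1-/- libraries (log2 2.45, FDR 1.41e-14) and Fgf15 at 14.8 ± 2.503 and 64.5 ± 7.97 CPM (log2 2.12, FDR 1.36e-10). Fgf8, an FGF of the tail bud, was at 136 ± 14.2 and 67.4 ± 13.2 CPM (log2 -1.005, FDR 2.85e-07), and Fgf9 at 36.3 ± 4.86 and 12.2 ± 1.23 CPM (log2 -1.57, FDR 9.09e-06). Of these ligand calls at d4 the 1 that rests on wildtype replicate 2 was that of Fgf5 (3.05 ± 5.02 and 0.289 ± 0.50 CPM, log2 -3.35, FDR 0.0296), which was named after its values were seen and was not called without that library (FDR 0.845). The other 6 ligand calls at d4 were made without it too. At d4G 2 were higher, Fgf4 and Fgf15, and 3 lower, Fgf8, Fgf9 and Fgf17, against 3.28% and 4.63% of genes. The Fgf9 call was lost there without wildtype replicate 3 or any 1 of the Nr6a1-/- libraries (FDR up to 0.170), and that of Fgf17 without Nr6a1-/- replicate 2 (FDR 0.0872). At d3 Fgf8 was the only ligand called (-0.44, against 6.3% of genes lower), and not without wildtype replicate 1 or Nr6a1-/- replicate 1 or 3 (FDR up to 0.103). At d2 and d2.5 neither the main edgeR fit nor DESeq2 called any, and the 1 ligand with an unadjusted p below 0.05 was Fgf5 at d2 (0.82, FDR 0.103). Over the alternatives, 0 to 2 ligands were called at d2 and 0 at d2.5.

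The genes that receive and carry the signal were examined next. Of 4 tested receptors and co-receptors (of 8 listed), Fgfr1 was higher (0.75, FDR 7.63e-05) and Flrt3 lower (-0.62, FDR 0.0287) at d4, where 9.7% of all genes were higher and 9.18% lower. The Flrt3 call was lost without wildtype replicate 1 or Nr6a1-/- replicate 1 or 2 (largest FDR 0.126). Flrt3 was also the gene called lower at d2 (-1.42), d3 (-1.48) and d4G (-0.95), where 2.72%, 6.3% and 4.63% of genes were lower, at d2 not without wildtype replicate 3 or Nr6a1-/- replicate 2 (FDR up to 0.0708). Of the 19 adaptors and kinases, 2 were higher and 2 lower at d4, shares close to the 9.7% and 9.18% of all genes. The higher 2 were Nras (0.34, lost without Nr6a1-/- replicate 2, FDR up to 0.249 over all alternatives) and Map2k1 (0.52, lost without any 1 of the d4 libraries but Nr6a1-/- replicate 2, FDR up to 0.322). The lower 2 were Hras (-0.33, lost without wildtype replicate 1 or Nr6a1-/- replicate 2 or 3, FDR up to 0.177) and the adaptor Gab1, which was lower at each of the 5 stages with log2 differences from -1.46 to -1.25. Nras was also higher at d2.5 (0.40, lost without wildtype replicate 1 or 2), and Hras was also lower at d4G (-0.55, lost after thinning). Gab1 and Fgfr1 lie on chromosome 8 as well. Of 13 tested other dampeners (of 15 listed), 3 were higher and 0 lower at d4, against the same 9.7% and 9.18% of genes. Dusp9, a further ERK phosphatase, was at 27.7 ± 1.40 CPM in the wildtype and 54.2 ± 2.09 CPM in the Nr6a1-/- libraries at d4 (log2 0.96, FDR 1.39e-05) and at 20.02 ± 4.86 and 53.1 ± 3.65 CPM at d4G (log2 1.41, FDR 2.53e-07). The other 2 at d4, Nf1 (0.59, FDR 0.0455) and Rasa1 (0.52, FDR 0.0156), were lost without wildtype replicate 2 or Nr6a1-/- replicate 2 or 3, and Nf1 also without wildtype replicate 1 or 3 (FDR up to 0.355 for Nf1 and 0.193 for Rasa1 over all alternatives). At d4G Spred2 was the second called higher, against 3.28% of genes (0.74, FDR 0.00296), and not without Nr6a1-/- replicate 3 (FDR 0.101). Cbl was the 1 called at d2 (0.45) and at d2.5, both higher, against 1.35% and 2.86% of genes (0.39 at d2.5, lost without wildtype replicate 2 or 3 or Nr6a1-/- replicate 1, FDR up to 0.119).

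In wildtype cells the ligands and the immediate early genes had their own courses beside those of the feedback genes. Between d2 and d2.5, when Dusp6, Spry2 and Etv5 fell, Fgf8 rose by 4.17 on the log2 scale while Fgf4 fell by 3.53 and Fgf5 by 3.31, and of the 15 immediate early and other ERK responsive genes 1 fell, Ccnd1 (-0.29, lost without d2 replicate 3, FDR up to 0.0885), and 0 rose. Over this step 2 of 8 ligands rose and 3 fell, against 13.3% and 12.1% of genes. Between d3 and d4, when 4 feedback genes were called lower, 5 of those 15 rose and 0 fell, among them Fos (3.33), Egr1 (2.52) and Myc (1.63), against 9.77% and 11.3% of genes. In the same step 6 of 8 ligands rose and 0 fell, among them Fgf9 (5.52) and Fgf3 (2.35). Without d4 wildtype replicate 2 the ligands that rose were 4, Fgf4 (0.40, FDR 0.248) and Fgf5 (-1.10, FDR 0.636) no longer being called, and the immediate early genes that rose were still 5. In the Gdf11 comparison 6 of 8 ligands were lower, among them Fgf4 (-3.36), and 1 was higher, Fgf17 (1.21), against 14.5% and 14.3% of genes. Of the 15 immediate early and other ERK responsive genes 7 were higher there, among them Junb (2.44), and 4 were lower, Myc (-0.998), Etv1 (-0.82), Phlda1 (-0.46) and Ccnd1 (-0.30). Without d4 wildtype replicate 2 the calls of Fgf5 (FDR 0.937), Etv1 (FDR 0.0739) and Ccnd1 (FDR 0.0588) were lost, which left 5 ligands and 2 of the 15 lower. Fgf5, Fgf17, Etv1, Phlda1 and Ccnd1 were named here after their values were seen.

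The likeness of each member to other genes was taken as Pearson's r of group mean log2 CPM over the 10 groups, among 9731 candidate genes with at least 10 CPM in a group, and is given as a description. All genes share the same libraries and the course of differentiation. The nearest gene was Fzd2 for Spry1 (0.956), Zfp217 for Spry2 (0.943), Poc5 for Spry4 (0.943), Msrb2 for Spred1 (0.911), Psme2 for Dusp4 (0.936), Rab26os for Dusp6 (0.928), Ndufb4 for Etv4 (0.930), Hikeshi for Etv5 (0.984) and Cacfd1 for Il17rd (0.990). No member had another member as its nearest gene. The closest pair of members was Spry2 and Dusp6 (0.849), each other's nearest member, at rank 34 for Spry2 and rank 8 for Dusp6. Etv5 and Il17rd ran opposite to each other (-0.852), Etv5 being highest and Il17rd lowest at d2.

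Some of the members also varied together between libraries of the same group, most of all Dusp6, Spry2 and Etv5. Deviations of log2 CPM from the group mean, over 30 libraries with 20 degrees of freedom, correlated at 0.869 between Dusp6 and Spry2, 0.744 between Dusp6 and Etv5 and 0.655 between Spry2 and Etv5. The median over the 36 pairs of members was 0.0968, beside -0.00143 over all pairs of genes with at least 10 CPM, of which 90% lay below 0.315. Only 23 of the 36 were above 0. The lowest were -0.369 for Dusp6 and Il17rd, -0.277 for Spry1 and Dusp4, -0.273 for Dusp4 and Il17rd and -0.267 for Spry4 and Dusp4. Dusp6 and Etv4 correlated at 0.257. In 8 of the 10 groups the same library was highest in both Dusp6 and Spry2, and in 8 of the 10 the same library was lowest in both. Without d4 wildtype replicate 2 the value for Dusp6 and Spry2 was 0.870. The genes nearest to Dusp6 by this measure were not members but Rsl24d1 (0.967), Snd1 (0.964) and Hnrnpul1 (0.963), and those nearest to Spry2 included Gja1 (0.960), Paip1 (0.954) and Actb (0.945). The correlation with log depth was 0.214 for Dusp6 and 0.159 for Spry2, and of the immediate early genes Egr1 correlated with Dusp6 at 0.389 and Phlda1 at -0.336. These correlations are descriptions, and both genes of a pair were counted in the same libraries.

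**Figure D5:**
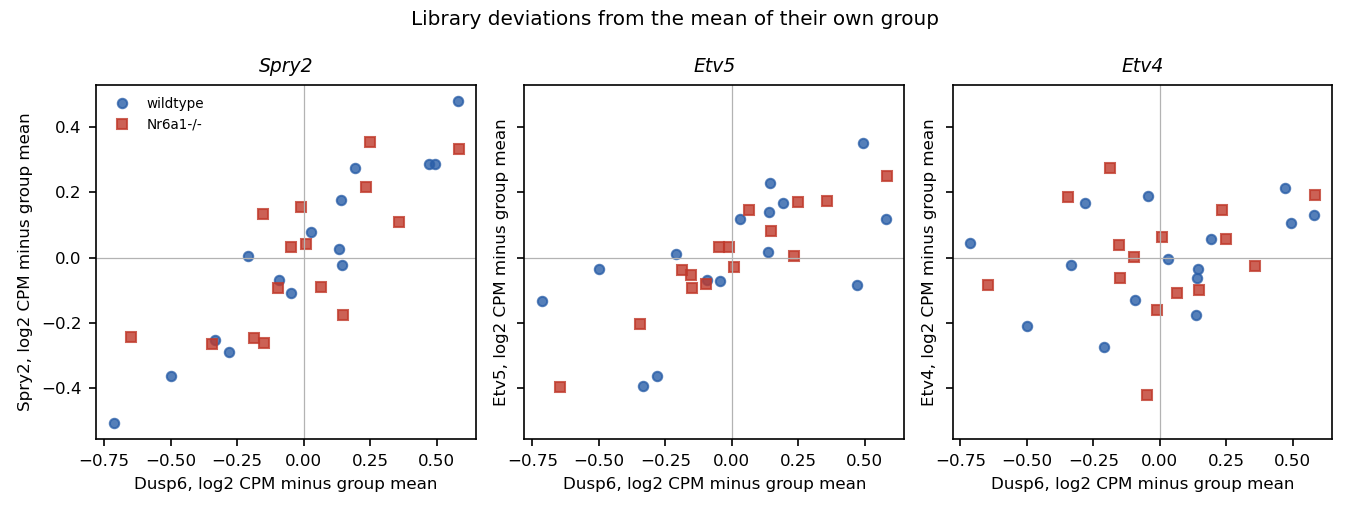
Deviation of log2 CPM from the mean of its own group in each of the 30 libraries, for Spry2, Etv5 and Etv4 (vertical axes) against Dusp6 (horizontal axes). Points for Spry2 follow a rising line (r = 0.869), those for Etv5 less closely (0.744), and those for Etv4 scatter (0.257).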

How the data were processed

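RNA was measured in 30 libraries, 5 stages by 2 genotypes with 3 replicates each, grouped by their labels. Libraries were made by the authors' own method by priming at the poly(A) tail with primers that carried an index and a molecular identifier, followed by template switching and tagmentation, so that reads lie at 3′ ends. The submitters' processing notes name STAR, edgeR and mm10. Versions, the annotation, the counter, strand use and the collapsing of identifiers are not given in the sources used here. Uncollapsed identifiers would leave amplified copies in the counts, so that limits cover counting error only. The deposited table gives raw counts as whole numbers, 1 column for each library, and 0 of its sample columns were left unmatched. The authors also deposited 1 table per stage with counts, CPM, and the fold changes and p-values of their own comparison of genotypes, which were not used here.

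A gene was kept where 2 or more libraries of a group had over 10 counts and over 2 CPM, which left 12149 of 54134, and 41985 rows were dropped. At least 99.2% of the counts of each library were kept. TMM-scaled counts were fitted as 1 model of 10 groups with 20 residual degrees of freedom in edgeR 4.0.16 (R 4.3.3, limma 3.58.1). The 17 comparisons (genotypes at 5 stages, 4 steps in each genotype, 4 interactions) were tested with the quasi-likelihood test, 2-sided, and called at a Benjamini-Hochberg FDR below 0.05. SE is the log2 fold change over the square root of F, and the 95% intervals follow from it. CPM are TMM-scaled without a prior count, and group mean log2 CPM for likeness had a prior count of 2. The fitting was tested on simulated data. Library totals and the limit of a count of 0 are given with the results.

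The members, lists and tests were chosen with earlier results of these data known. All 9 members are named in each comparison. From each of the 5 lists up to 4 called genes with the largest change and at least 10 CPM in a group were named, and for likeness the nearest genes. Positions are those of GENCODE M21 (GRCm38), which placed 99.0% of tested genes, and promoters those of RefSeq GRCm38.p6. Replicates of a group were compared before use, with a chi-square per gene of 1.49 to 7.62 over 30 pairs. The highest values, 6.40 and 7.62, were those of Nr6a1-/- replicate 1 at d4 with its replicates, whose own pair had 2.82. The alternatives were RLE factors, no factors, no filter, DESeq2 1.42.0, only the libraries compared, the replicate number as a block, thinning to the smallest total and leaving out each library in turn. The shorter ETS letters, the correlations within groups and the counts without chromosome 8 were added after the data were seen.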

Additional observations from a re-analysis of the deposited data

Results flagged for a closer look

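For 4 values of feedback genes, the effect of a step differed between the genotypes by the interaction test of edgeR. The log2 difference of the differences (Nr6a1-/- minus wildtype) was 1.62 for Dusp6 from d2 to d2.5, 0.95 for Spry2 and 1.13 for Dusp6 from d3 to d4, and -0.91 for Etv4 in the Gdf11 comparison. The libraries on which each rests are given in the report.

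Of the listed pathway genes, 11 further values differed between the genotypes in the same way. From d3 to d4 the values were 1.97 for Fgf4 (FDR 1.41e-05), 1.89 for Fgf15 (FDR 0.0017), 0.84 for Dusp9 (FDR 0.0315) and 0.62 for Fgfr1 (FDR 0.0464) on the higher side. On the lower side they were -1.41 for Egr1 (FDR 0.00152), -1.13 for Phlda1 (FDR 0.00208) and -0.59 for Ccnd1 (FDR 0.00205). For the co-receptor gene Flrt3 the value was 1.77 from d2 to d2.5 (FDR 0.0158) and -1.83 from d2.5 to d3 (FDR 0.00189). In the Gdf11 comparison it was 1.26 for Myc (FDR 0.0222) and -0.93 for Ets2 (FDR 0.0118). The Fgfr1 call was lost under 13 alternatives and that of Dusp9 under 7, all of these for Dusp9 being single libraries left out. The calls of Flrt3 in the first step, Myc, Ets2 and Fgf15 were lost under 4, 6, 2 and 1 alternatives.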

How the results depend on the processing

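Of the 153 differences of members, 53 were called, 31 of them under every alternative run. The other 22 were lost under at least 1, and of the 100 not called 18 became called under at least 1. No called value changed its sign. Of 2202 values under alternatives, 71 had the other sign, none of them called. They belong to 29 differences and reached at most 0.52 in size.

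The number of members called moved by over 1.5 times in these cases. Between genotypes at d2 it was 0, but 3 with no filter, 3 with only the libraries compared and 0 to 1 with a library left out. It ranged from 1 to 5 at d2.5 and from 1 to 2 at d4G with a library left out. From d3 to d4 in wildtype it was 4, but 2 with DESeq2, 2 after thinning and 2 to 4 with a library left out. With a library left out it was 2 to 4 for Gdf11 in wildtype, 2 to 4 from d3 to d4 and 3 to 5 for Gdf11 in Nr6a1-/- cells. From d2.5 to d3 in Nr6a1-/- cells it was 7 with only the libraries compared. For the interactions it was 3 with no filter, 3 after thinning and 0 to 3 with a library left out from d2 to d2.5; 1 with no filter, 1 with only the libraries compared and 0 to 1 with a library left out from d2.5 to d3; 0 with DESeq2 and 0 to 2 with a library left out from d3 to d4; and 2 with no filter, 0 after thinning and 0 to 1 with a library left out for Gdf11. These causes were not tested.

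Replicate numbers did not pair the samples: none of 15 pairs with the same number had deviations correlated above 0.1 (-0.15 to 0.08), and 4 correlated best with their own number. With the replicate number as a block, 1 member was called at d2 and 3 in the first interaction.

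Over all genes, the number called between genotypes at d2 was 494, but 304 to 311 without wildtype replicate 3 or Nr6a1-/- replicate 1 or 2. At d2.5 it was 784, but 478 to 495 without wildtype replicate 1 or 2 or Nr6a1-/- replicate 1, and at d3 1308, but 871 without wildtype replicate 3. At d4 it was 2294, but 1398 with only the libraries compared and 1487 without Nr6a1-/- replicate 3, and it was 1811 without wildtype replicate 2 and 2625 without Nr6a1-/- replicate 1. For Gdf11 in Nr6a1-/- cells it was 2191, and 1467 with only the libraries compared. The 4 interactions, with 74, 99, 695 and 323 calls, ranged over the alternatives from 26 to 317, 47 to 359, 440 to 1157 and 205 to 823. With no factors the share of calls that were higher moved from 33.2% to 44% at d2, from 52.3% to 65.9% for d2.5 against d2 and from 49.8% to 63.2% for Gdf11 in wildtype, and from 52.4% to 40.2% for d4 against d3 and from 46.8% to 59.7% for Gdf11 in Nr6a1-/- cells. A median of all genes beyond 0.1 arose in 1 comparison, Gdf11 in wildtype (0.11, and 0.02 with TMM). Of the 162 named differences of listed genes, 62 were lost under at least 1 alternative and 0 reversed. Likeness values over single libraries were lower, 0.405 to 0.919. Depth limits Spry1 most, at 4 to 25 counts a library.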
